A study of Mus musculus with 9 samples.

Results

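The T and NK cell markers are 10 genes, Cd3d, Cd3e, Cd3g, Cd4, Cd8a, Cd8b1, Nkg7, Gzma, Gzmb and Klrd1, picked by name out of 37316 genes named on the array. Their RNA was measured in mature megakaryocytes (mMKs) from the bone marrow of male mice. The labels give neither strain nor age, and the methods name C57BL/6 as the wild-type strain of the study. The 3 groups were sham-irradiated controls (Ctrl) and mice at 1 and 3 days post IR (1 dpi and 3 dpi), after a total-body dose of 5 Gy of γ-rays, each measured on 3 arrays, which makes 9. The array titles give only group and replicate number, and the labels do not say whether RNA of several mice was pooled. The cells were selected for CD41 and then for CD42d, surface proteins of the megakaryocyte lineage, and the array RNA is described as coming from sorted mMKs.

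T cells recognize antigen through a receptor whose signal passes through the CD3 chains, and the co-receptors CD4 and CD8 bind the presenting molecules of helper and cytotoxic T cells, respectively. NK cells lack that receptor and read target cells through paired activating and inhibitory receptors. Both cytotoxic T cells and NK cells kill by releasing granules that hold perforin and granzymes. Several of the 10 genes are not exclusive to these cells, since plasmacytoid dendritic cells of the mouse can carry Cd4, Cd8a and Gzmb, a dendritic cell subset carries Cd8a, and mast cells and basophils can carry granzymes.

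The arrays were Agilent 1-color arrays with probes of 60 bases, placed on the mouse genome build mm9. Each array held 59305 probe spots, of which 69.1%, 79.5% and 80.8% were well above background on the 3 Ctrl arrays, 72.3%, 74.8% and 75.6% at 1 dpi, and 81.8%, 81.6% and 81.8% at 3 dpi. The arrays also differed in brightness, with a 75th percentile intensity of 1048, 1576 and 1617 in Ctrl, 642, 699 and 689 at 1 dpi, and 1320, 1502 and 1482 at 3 dpi. A level is given here as log2 intensity minus the log2 of that percentile, so that 0 is the 75th percentile of the array. Probes differ in how brightly they report the same amount of RNA, so a ranking or sum over genes describes signal and not amounts of RNA. Ctrl replicate 1 was alone on slide 1 and the other 8 arrays were on slide 2. Values within slide 2 are therefore those without Ctrl replicate 1. A gene is called where limma's adjusted p over 29410 genes tested was under 0.05 and the change was at least 2-fold. The number of arrays limits the precision, and the smallest p that an exact two-sided permutation of 3 arrays against 3 can give is 0.10.

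All 10 markers passed the filter on dim probes, and on each of the 9 arrays all 10 were well above background. At 1 dpi Gzma and Gzmb were called higher than in Ctrl, which is 2 of 10 beside 12.3% of all genes tested called higher and 2.87% called lower. That share is near the one for all genes. At 3 dpi Cd3g, Gzma, Gzmb and Klrd1 were called higher, which is 4 of 10 beside 6.98% of all genes called higher and 1.82% called lower. From 1 to 3 dpi Cd3g, Gzma and Klrd1 were called higher, which is 3 of 10 beside 3.97% of all genes called higher and 4.82% called lower. The number called lower by limma was 0 in each of the 3 comparisons, while 0, 0 and 3 of the 10 had a lower level at an unadjusted p under 0.05. The 3 comparisons share arrays, so their counts are not independent. In bulk RNA, fewer cells of a type and less RNA per cell cannot be told apart, and the same holds for more cells and more RNA.

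The median log2 fold change of the 10 markers was 0.50 at 1 dpi, 0.70 at 3 dpi and 0.12 from 1 to 3 dpi. Over all genes tested it was 0.25, 0.11 and -0.11, a shift that the scaling leaves and against which changes are also given below. Relative to it, the markers' median was 0.25, 0.58 and 0.23. The balance of calls at 1 dpi depended on the processing: of the genes called, 81.1% were higher, against 48.8% with scaling to the array median, 56.3% with quantile normalization, 68.5% with normexp background correction followed by quantile normalization (normexp-quantile below), 50.3% in the deposited log2 values and 57.2% relative to the median of all genes. At 3 dpi 79.4% of the calls were higher, against 68.9% in the deposited values. From 1 to 3 dpi the share was 45.2%, against 67.2% with scaling to the array median, 62.9% with quantile normalization, 64.1% in the deposited values and 56.6% relative to the median of all genes, and against 26.7% with no filter on dim probes and 36.5% with only probes well above background on all 9 arrays. The deposited values and normexp-quantile differ from the main values in more than scaling. The 4 markers called at 3 dpi were called in each of these settings.

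**Figure D1:**
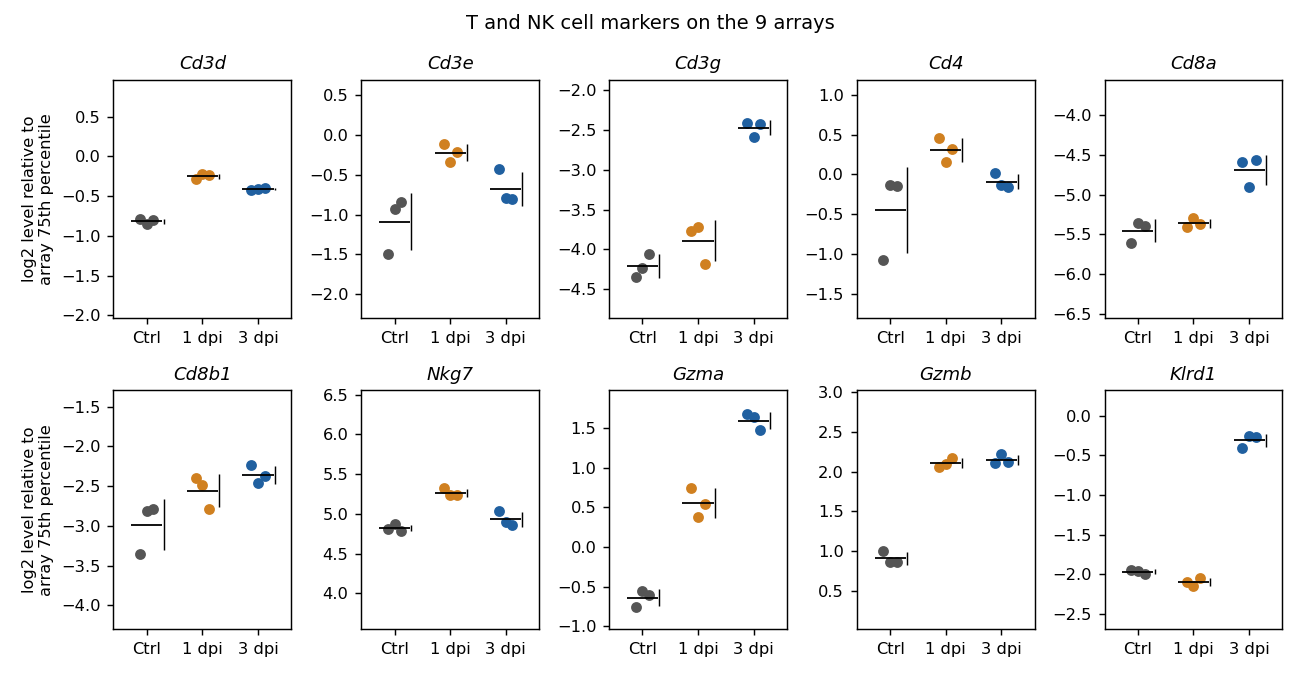
Level of each marker (log2 intensity minus the 75th percentile of the array, vertical axes of equal span) on each of the 9 arrays, by group. Points are arrays, horizontal bars are means and vertical bars are ± 1 SD (n = 3). Klrd1 and Cd3g stand apart at 3 dpi, Gzma climbs in steps, and Gzmb is high at both times.

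The granzymes are serine proteases of cytotoxic granules, Gzma with tryptase-like specificity and Gzmb cutting after aspartate. The level of Gzma was -0.76, -0.55 and -0.61 on the Ctrl arrays, 0.75, 0.38 and 0.54 at 1 dpi, and 1.67, 1.63 and 1.47 at 3 dpi. The 3 groups did not overlap, with every 1 dpi array above the Ctrl arrays and every 3 dpi array above those of 1 dpi. Over all genes 67.5% showed no overlap between 1 dpi and Ctrl, 47.0% between 3 dpi and Ctrl and 65.5% between the times. Gzma thus rose by 1.19 ± 0.11 (log2 fold change ± SE, adjusted p = 1.0e-04) at 1 dpi and by 2.23 ± 0.11 (adjusted p = 4.6e-06) at 3 dpi, which is 2.29-fold and 4.68-fold. Between the times it rose by 1.04 ± 0.11 (adjusted p = 3.1e-04). That last value lies close to 2-fold and was below it without 1 dpi replicate 2 (0.95), without 3 dpi replicate 1 (just under 1.00) and with normexp-quantile (0.97).

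The level of Gzmb was 1.01, 0.86 and 0.86 on the Ctrl arrays, 2.06, 2.10 and 2.17 at 1 dpi, and 2.11, 2.22 and 2.12 at 3 dpi. By this level all 6 arrays after IR were above all 3 Ctrl arrays, and those of 1 and 3 dpi overlapped. Before scaling, intensities of 2106 to 2936 in Ctrl and 2675 to 3108 at 1 dpi overlapped, and those at 3 dpi were 5703 to 7001. Gzmb rose by 1.20 ± 0.07 (adjusted p = 1.0e-05) at 1 dpi and by 1.24 ± 0.07 (adjusted p = 8.6e-06) at 3 dpi, with 0.04 ± 0.07 (adjusted p = 0.67) between the times. Both granzymes were called at 1 dpi with quantile normalization, with normexp-quantile and in the deposited values, too. Relative to the median of all genes Gzma was at 0.94 and Gzmb at 0.95, and with scaling to the array median at 0.88 and 0.89, all under 2-fold. Within slide 2 the values at 1 dpi were 1.13 and 1.25, and at 3 dpi 2.17 and 1.29.

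Klrd1 (CD94) forms heterodimers with NKG2 proteins on NK cells and some T cells. Its probe lies in the coding sequence at chr6:129548391-129548450 of mm9, plus strand, and is shown since this gene had the largest change between the times among the 10.

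Klrd1 probe: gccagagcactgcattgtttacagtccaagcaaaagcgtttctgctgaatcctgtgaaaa

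The intensity of Klrd1 was 273, 407 and 405 on the Ctrl arrays, 151, 159 and 167 at 1 dpi, and 998, 1255 and 1232 at 3 dpi. Scaled, the mean level was -1.96 ± 0.03 (SD, n = 3) in Ctrl, -2.09 ± 0.05 at 1 dpi and -0.31 ± 0.08 at 3 dpi. The arrays of 1 dpi were slightly below those of Ctrl, and the 3 dpi arrays were far above both. Klrd1 rose by 1.65 ± 0.06 (adjusted p = 1.3e-06) at 3 dpi and by 1.78 ± 0.06 (adjusted p = 5.5e-06) from 1 to 3 dpi, whereas its value at 1 dpi was -0.13 ± 0.06 (adjusted p = 0.12). At 1 dpi it was lower with other scalings, at -0.44 (adjusted p = 0.019) with scaling to the array median and -0.29 with quantile normalization (adjusted p = 0.012) and in the deposited values (adjusted p = 0.014), each under 2-fold. Within slide 2 the value at 3 dpi was 1.67.

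Nkg7, a membrane protein of cytotoxic granules, gave a bright signal on every array, with intensities of 29543 to 46076 in Ctrl, 25717 to 26297 at 1 dpi and 43028 to 44700 at 3 dpi. Its fold change was 0.44 ± 0.07 (adjusted p = 0.0013) at 1 dpi and 0.11 ± 0.07 (adjusted p = 0.28) at 3 dpi, both under 2-fold. The value at 1 dpi shrank to 0.12 (adjusted p = 0.42) with scaling to the array median and to 0.14 with quantile normalization (adjusted p = 0.062) and in the deposited values (adjusted p = 0.088), and the one at 3 dpi turned to -0.02 with scaling to the array median. Between the times it was -0.33 ± 0.07 (adjusted p = 0.0060), under 2-fold, and shrank to -0.14 (adjusted p = 0.40) with array medians as the reference, -0.13 (adjusted p = 0.095) with quantile normalization and -0.12 (adjusted p = 0.13) in the deposited values. The summed level of the 10 markers, in multiples of the 75th percentile, was 32.6 to 34.2 in Ctrl, 46.5 to 49.5 at 1 dpi and 39.6 to 44.1 at 3 dpi. Nkg7 was the brightest of them on each array, so that this sum says little about the others.

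The CD3 genes encode the delta, epsilon and gamma chains that carry the signal of the T cell receptor. The level of Cd3g was -4.35, -4.23 and -4.05 on the Ctrl arrays, -3.77, -3.71 and -4.19 at 1 dpi, and -2.40, -2.58 and -2.42 at 3 dpi. Arrays of Ctrl and 1 dpi overlapped, and all 3 dpi arrays were above both. The signal was low before that time, with intensities of 52 to 97 in Ctrl and 38 to 53 at 1 dpi, and reached 249 to 276 at 3 dpi. Cd3g rose by 1.74 ± 0.14 (adjusted p = 5.8e-05) at 3 dpi and by 1.42 ± 0.14 (adjusted p = 2.1e-04) from 1 to 3 dpi. At 1 dpi its value was 0.32 ± 0.14 (adjusted p = 0.084), and this turned to -0.06 with quantile normalization and in the deposited values and to -0.04 with normexp-quantile.

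Cd3d and Cd3e were measured by a pair of probes each. The level of Cd3d was -0.79, -0.85 and -0.81 in Ctrl, -0.29, -0.23 and -0.24 at 1 dpi, and -0.42, -0.41 and -0.39 at 3 dpi. The groups did not overlap, but the differences of 0.56 ± 0.05 (adjusted p = 1.0e-04) and 0.41 ± 0.05 (adjusted p = 7.2e-04) from Ctrl were under 2-fold. With array medians as the reference they were 0.25 (adjusted p = 0.13) and 0.28 (adjusted p = 0.14), and relative to the median of all genes 0.32 and 0.29. The dimmer Cd3d probe gave 0.55 and 0.36. Cd3e gave 0.87 ± 0.19 (adjusted p = 0.0059) at 1 dpi and 0.41 ± 0.19 (adjusted p = 0.14) at 3 dpi, neither 2-fold. By itself the dimmer Cd3e probe gave 1.22 at 1 dpi, which was called, 0.05 at 3 dpi and a called -1.18 from 1 to 3 dpi. The probe that stands for Cd3e gave an uncalled -0.45 ± 0.19 (adjusted p = 0.085) from 1 to 3 dpi. By mean level Cd3g was thus highest at 3 dpi and Cd3e at 1 dpi, the latter without a call between the times for the gene. For Cd3d the value between the times was -0.16 ± 0.05 (adjusted p = 0.043) and depended on the scaling, since array medians as the reference gave 0.04 (adjusted p = 0.85). Whether the chains differed from each other in their change was not tested.

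**Figure D2:**
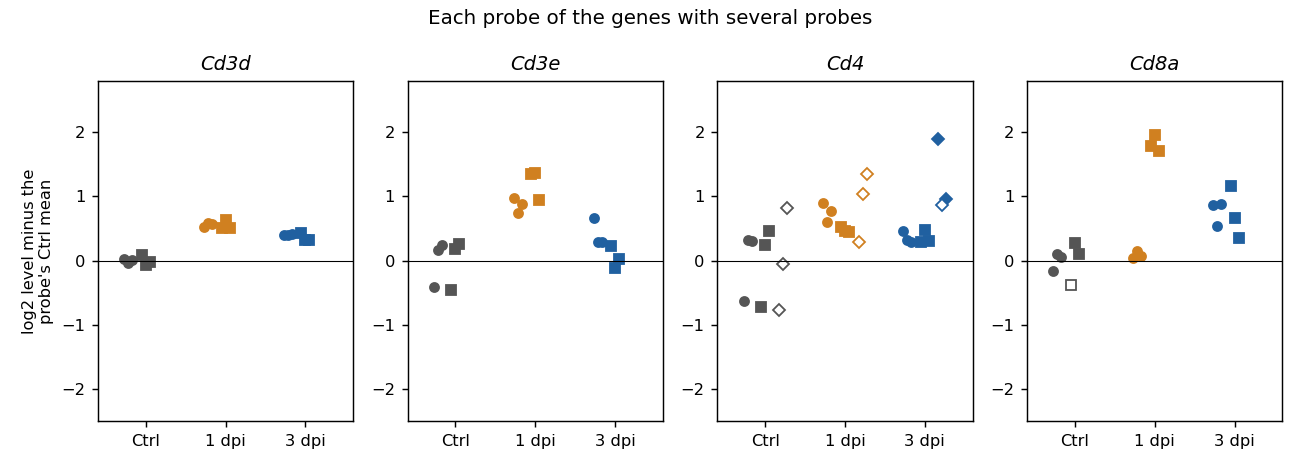
Level of each probe of the 4 markers with several probes (log2, minus the Ctrl mean of the same probe) on each array, by group. Circles stand for the probe used for the gene, squares and diamonds for the other probes, and open symbols for arrays on which the probe was not well above background. The Cd3d probes move together, while the squares of Cd8a and Cd3e are highest at 1 dpi.

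Cd4 and Cd8 are the co-receptors of T cells, and Cd8a and Cd8b1 encode the alpha and beta chains of CD8. The level of Cd4 was -1.08, -0.13 and -0.15 in Ctrl, 0.45, 0.15 and 0.32 at 1 dpi, and 0.01, -0.14 and -0.16 at 3 dpi. Ctrl replicate 1 was far below the other Ctrl arrays, and it was the lowest of all 9 for Cd3e, Cd3g, Cd8a, Cd8b1 and Gzma, too. Cd4 gave 0.76 ± 0.24 (adjusted p = 0.031) at 1 dpi and 0.36 ± 0.24 (adjusted p = 0.31) at 3 dpi, and 0.45 and 0.04 without Ctrl replicate 1. Neither value was 2-fold. Without that array Cd3e was at 0.66 and 0.21, and Cd8b1 at 0.24 and 0.44. The second Cd4 probe gave 0.48 and 0.36, and the third was well above background on only 2 arrays, both of 3 dpi, and was not tested. Cd8b1 ranged from -3.36 to -2.78 in Ctrl, -2.79 to -2.40 at 1 dpi and -2.46 to -2.23 at 3 dpi, with 0.43 ± 0.17 (adjusted p = 0.069) at 1 dpi and 0.63 ± 0.17 (adjusted p = 0.027) at 3 dpi, both under 2-fold.

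The Cd8a probes gave opposite answers between the times. The probe that stands for the gene by its brightness had intensities of 15.1 to 62.4 and levels of -5.61, -5.35 and -5.39 in Ctrl, -5.41, -5.29 and -5.37 at 1 dpi, and -4.59, -4.91 and -4.57 at 3 dpi. It was highest at 3 dpi, with 0.09 ± 0.11 (adjusted p = 0.49) at 1 dpi, 0.76 ± 0.11 (adjusted p = 0.0015) at 3 dpi and 0.67 ± 0.11 (adjusted p = 0.0024) between the times. The other probe had intensities of 12.4 to 45.6 and levels of -6.40, -5.74 and -5.92 in Ctrl, where the lowest was not well above background, then -4.22, -4.07 and -4.32 at 1 dpi, and -4.85, -5.36 and -5.67 at 3 dpi. It was highest at 1 dpi, with a called 1.82 at 1 dpi, an uncalled 0.73 at 3 dpi and a called -1.09 between the times. The probes lie 4966 bases apart on chromosome 6, and the array files assign them to different transcripts of the gene. The probe with the peak at 1 dpi is the one in the coding sequence, at chr6:71323885-71323944 of mm9 on the plus strand, shown here because the course of Cd8a depends on which probe is read.

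Cd8a coding probe: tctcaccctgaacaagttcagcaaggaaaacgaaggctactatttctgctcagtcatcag

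Both were dim, although only the lowest Ctrl array of the coding probe was not well above background. As they were also opposed between the times, no course of Cd8a was taken from them. With any 1 array of Ctrl or 3 dpi left out, with quantile normalization and in the deposited values, this coding probe stood for the gene, and the value between the times was then negative.

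**Figure D3:**
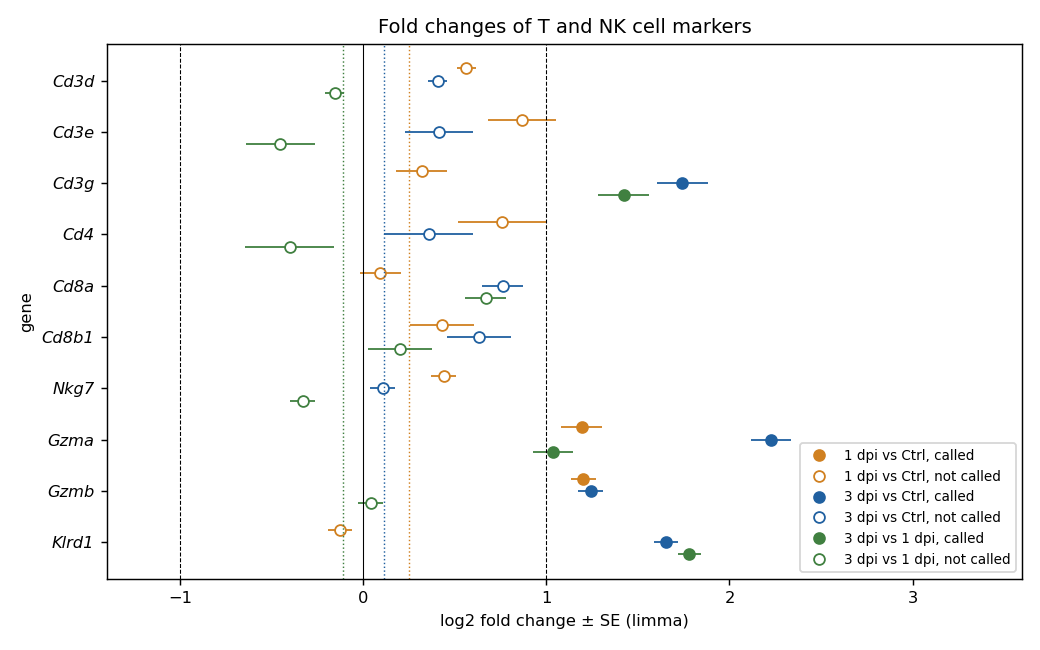
Log2 fold change ± SE from limma (horizontal axis) of each marker in the 3 comparisons. Filled points were called, dashed lines mark 2-fold and dotted lines the median of all genes in the color of the comparison. The granzymes lie to the right of 2-fold at both times (under it at 1 dpi with scaling to the array median), and Cd3g and Klrd1 at 3 dpi.

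The sequences before the start sites of Gzma, Gzmb and Cd3g are shown because these genes were called higher at 3 dpi and are in the RefSeq table (build GRCm38.p6), which held 7 of the 10 markers. Each is 250 bases long and ends at the base before the start. They lie at chr13:113100982-113101231, chr14:56262335-56262584 and chr9:44980432-44980681, all on the minus strand. Capitals mark matches to TGTGGTT (the core of RUNX sites) and TGANTCA (AP-1), searched on both strands with letters picked after the sequences had been seen.

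Gzma: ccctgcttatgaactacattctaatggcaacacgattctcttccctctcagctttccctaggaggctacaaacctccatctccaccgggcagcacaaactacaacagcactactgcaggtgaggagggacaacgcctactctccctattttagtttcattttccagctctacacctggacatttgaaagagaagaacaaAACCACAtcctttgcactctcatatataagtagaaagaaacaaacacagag

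Gzmb: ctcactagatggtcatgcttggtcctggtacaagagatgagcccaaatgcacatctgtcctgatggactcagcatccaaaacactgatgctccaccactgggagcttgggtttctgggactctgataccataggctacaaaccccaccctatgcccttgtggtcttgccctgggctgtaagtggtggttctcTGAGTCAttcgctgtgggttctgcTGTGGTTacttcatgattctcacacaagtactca

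Cd3g: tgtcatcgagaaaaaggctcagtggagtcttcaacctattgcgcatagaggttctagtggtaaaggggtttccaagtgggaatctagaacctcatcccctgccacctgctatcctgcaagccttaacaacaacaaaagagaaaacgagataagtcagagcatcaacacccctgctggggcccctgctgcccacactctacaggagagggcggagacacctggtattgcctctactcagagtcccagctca

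Of the 7, TGTGGTT was found in both granzyme genes, reversed as AACCACA at -51 to -45 in Gzma and forward at -34 to -28 in Gzmb. Over all 32851 sequences of this length, 4.40% hold it. Gzmb also had TGANTCA at -58 to -52, found in 6.75% of all. Cd3g held none of the motifs searched. TTCNNNGAA (STAT) was found in Nkg7 and Cd3d and in 7.02% of all, and TATAAA in none of the 7 markers and in 12.4% of all. These matches describe letters and no binding was measured.

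The wider list of T-lineage genes held 38, of which 34 were on the array and 33 were tested. The constant regions of the T cell receptor (Trac, Trbc1, Trbc2 and Trdc) were not on it, so the receptor chains themselves cannot be given. At 1 dpi 5 of the 33 were called higher, Cd247 and Txk among them, and 6 lower, beside 12.3% and 2.87% of all genes. At 3 dpi 9 were called higher and 4 lower (Rag1, Cd27, Lef1 and Ccr7), beside 6.98% and 1.82%. From 1 to 3 dpi 5 were called higher (Sh2d1a, Cd2, Lef1, Txk and Ms4a4b), beside 3.97%, and 1 with signal above background, Cd247, lower. The names in these counts were added after their values were seen. Rag1 gets no fold change, since no array of 1 or 3 dpi was well above background, and limma's call of it between these times is not counted here. The list's median was 0.34, 0.46 and 0.40, or 0.09, 0.35 and 0.51 relative to all genes. Its counts at 1 dpi moved to 1 higher and 6 lower with scaling to the array median or relative to the median of all genes, 3 and 6 with quantile normalization, 2 and 5 with normexp-quantile, and 2 and 9 in the deposited values.

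Of 4 signaling partners of CD3, 2 were called against Ctrl, each at 1 time. Cd247, the zeta chain that completes the CD3 complex, rose by 1.83 ± 0.17 (adjusted p = 9.6e-05) at 1 dpi, was at 0.18 ± 0.17 (adjusted p = 0.43) at 3 dpi, and fell by 1.64 between the times. The deposited row of Cd247 stems from a dimmer probe and gave uncalled values of the other sign, -1.11 at 1 dpi and 2.03 between the times. Zap70, the kinase recruited to the zeta chain, was at 0.19 ± 0.10 at 1 dpi and rose by 1.01 ± 0.10 (adjusted p = 1.5e-04) at 3 dpi, which was 0.90 relative to the median of all genes and so under 2-fold. For Lck, the kinase bound to the co-receptors, the values were -0.13 and 0.31, and for the adaptor Lat 0.31 and -0.31, with neither gene called. Among surface proteins, Thy1 rose 2.84-fold (adjusted p = 1.3e-05) at 3 dpi after an uncalled 1.93-fold at 1 dpi, Cd2 fell by 1.86 ± 0.09 at 1 dpi and was at -0.35 at 3 dpi, and Cd5 was at 0.46 and 0.98, uncalled. The IL-7 receptor gene Il7r was at -0.63 and -0.61, uncalled.

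Lef1, Ccr7 and Cd27 fell at both times. Lef1, a transcription factor of naive T cells and early B cells, fell by 3.26 ± 0.17 (adjusted p = 6.2e-06) at 1 dpi and by 1.95 ± 0.17 at 3 dpi. Ccr7, the receptor that guides lymphocytes and dendritic cells to lymph nodes, fell by 1.96 ± 0.07 and 1.85 ± 0.07, and the co-stimulatory receptor Cd27 fell by 1.54 ± 0.10 and 1.95 ± 0.10. Txk and Sh2d1a, known from both T and NK cells, were among the largest rises at 3 dpi. The Tec kinase Txk rose by 1.08 ± 0.07 at 1 dpi (0.84 relative to the median of all genes) and 2.26 ± 0.07 at 3 dpi. The signaling adaptor Sh2d1a was at 0.18 ± 0.22 at 1 dpi, where 2 of 3 arrays were well above background, and rose by 2.38 ± 0.22 at 3 dpi. Fyb, the brightest of the list, was at 0.15 and 0.04, uncalled. The list's summed level, in multiples of the 75th percentile, was 36.4 to 39.9 in Ctrl, 39.8 to 41.5 at 1 dpi and 41.2 to 43.2 at 3 dpi. Fyb made up 34.6% to 42.0% of it on each array. Without Fyb, which was left out after its level was seen, the sum was 23.1 to 23.2, 24.3 to 25.1 and 26.9 to 27.6, highest at 3 dpi.

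The list of NK and cytotoxic genes held 40, with 38 on the array and 37 tested, and shares Txk with the T-lineage list. At 1 dpi 11 of the 37 were called higher and 1, Slamf6, lower. At 3 dpi 19 were called higher, and from 1 to 3 dpi 9 higher and 1, Klra1, lower. The median was 0.71, 1.13 and 0.36, or 0.46, 1.02 and 0.47 relative to all genes, whose shares of calls are given above. At 1 dpi the counts moved to 5 higher and 2 lower with scaling to the array median, 7 and 2 relative to the median of all genes, with quantile normalization or in the deposited values, and 4 and 1 with normexp-quantile. At 3 dpi they were 19 and 1 with scaling to the array median, 18 and 1 with quantile normalization, 17 and 1 in the deposited values or relative to the median of all genes, and 12 higher with normexp-quantile. Its summed level was 25.4 to 26.9 in Ctrl, 54.2 to 63.4 at 1 dpi and 36.8 to 37.9 at 3 dpi, but Klra1 alone made up 44.0% to 50.2% of it at 1 dpi, against 3.43% to 11.2% in Ctrl and 11.1% to 13.4% at 3 dpi. Without Klra1, which was left out after its level was seen, the sum was 23.9 to 24.6, 30.3 to 31.5 and 32.5 to 33.7, highest at 3 dpi. Cst7, the brightest by its mean over the 9 arrays, was at 0.30 and -0.08 (neither called).

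The NK receptor genes given here were in part named for being the largest calls, and others of the list, picked after their values were seen, were not called at 3 dpi, such as Cd96 at -0.97 and Klrg1 at 0.04. Ncr1 (NKp46), an activating receptor largely specific to NK cells, rose by 1.02 ± 0.12 (adjusted p = 3.3e-04) at 1 dpi (0.91 and not called without Ctrl replicate 1) and 1.77 ± 0.12 (adjusted p = 2.5e-05) at 3 dpi. Klrb1c (NK1.1) was at 0.56 ± 0.15 at 1 dpi, uncalled, and rose by 1.97 ± 0.15 (adjusted p = 3.8e-05) at 3 dpi. The Ly49 receptor genes Klra4, Klra7 and Klra8 did likewise, with uncalled values of 0.43, 0.23 and 0.90 at 1 dpi and rises of 2.36 ± 0.12, 2.27 ± 0.07 and 2.48 ± 0.07 at 3 dpi. As with Klrd1, the increase between the times was itself called for these 3 genes, at 1.92, 2.04 and 1.58. Klra1 went the other way, up by 3.82 ± 0.43 (adjusted p = 2.6e-04) at 1 dpi, uncalled at 1.22 ± 0.43 (adjusted p = 0.066) at 3 dpi, and down between the times, but its Ctrl arrays spanned -0.20 to 1.60. Klrk1 (NKG2D) rose by 1.07 ± 0.06 and 1.08 ± 0.06, with 0.01 ± 0.06 between the times. Relative to the median of all genes Klrk1 was under 2-fold at both times (0.82 and 0.96), and Ncr1 at 1 dpi (0.78).

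The next genes are transcription factors and effector molecules of cytotoxic lymphocytes, in part named for being the largest calls, and others of this kind, such as Nkg7 and Cst7, were not called. Eomes rose by 1.63 ± 0.30 at 1 dpi and 1.96 ± 0.30 at 3 dpi, and Tbx21 (T-bet) by 1.12 ± 0.12 and 1.48 ± 0.12. The Ctrl arrays of Eomes were dim, from -5.87 to -4.76, and without Ctrl replicate 1 its value at 1 dpi was 1.27, still called. Il2rb, the receptor chain shared by IL-2 and IL-15, rose by 1.37 ± 0.08 and 2.46 ± 0.08 and also between the times, by 1.09 ± 0.08. The pore protein perforin (Prf1) rose by 1.26 ± 0.31 (adjusted p = 0.011) and 1.13 ± 0.31 (adjusted p = 0.028), with Ctrl arrays from -4.07 to -2.70, and at 3 dpi it was not called without Ctrl replicate 1 (1.05, adjusted p = 0.067). The cytokine gene Ifng rose by 1.30 ± 0.09 and 2.21 ± 0.09, the chemokine gene Xcl1 by 2.11 ± 0.07 and 2.20 ± 0.07, and the granzyme Gzmc by 2.03 ± 0.08 and 2.43 ± 0.08. At 1 dpi Tbx21 was under 2-fold relative to the median of all genes (0.87), and Prf1 (0.95) and Ifng (0.99) with scaling to the array median. Slamf6, a receptor of lymphocytes, fell by 2.16 ± 0.11 at 1 dpi and was at -0.75 at 3 dpi.

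**Figure D4:**
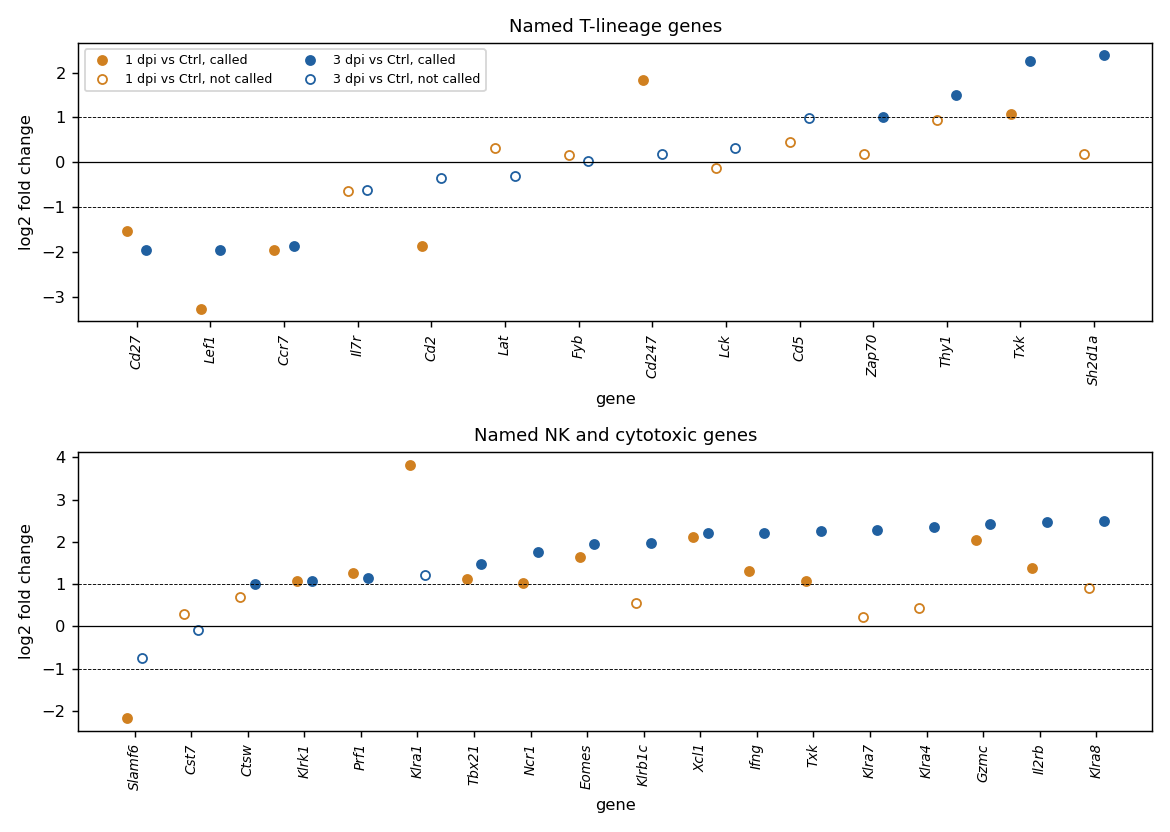
Log2 fold change (vertical axis) at 1 and 3 dpi against Ctrl for the T-lineage and the NK and cytotoxic genes named by the rule, ordered by the value at 3 dpi. Filled points were called and dashed lines mark 2-fold. The T-lineage genes spread to both sides, from Lef1, Ccr7 and Cd27 to Txk and Sh2d1a, and Slamf6 is the NK and cytotoxic gene called lower at 1 dpi.

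Markers of other bone marrow cells moved as well, and their part in the changes of the 10 markers was not tested. The counts for these lists are to be read against the genes tested as a whole. Of those, 12.3% had an upward call and 2.87% a downward call at 1 dpi. The same shares were 6.98% and 1.82% at 3 dpi, and 3.97% and 4.82% between the times. A count such as 2 of 12 upward at 1 dpi is thus near the share for all genes. Of 12 genes of plasmacytoid dendritic cells, 2 were called higher (Siglech and Bst2) and 3 lower (Spib, Ly6d and Klk1) at 1 dpi, the same 3 lower at 3 dpi, and 1 higher (Cox6a2) between the times. Siglech, the defining and brightest gene, was at 3.67 on Ctrl replicate 1, up to 4.84 on the other Ctrl arrays and 5.44 to 5.61 at 1 dpi, and rose by 1.08 ± 0.29 (adjusted p = 0.014) at 1 dpi, with 0.12 ± 0.29 at 3 dpi. Without Ctrl replicate 1 the value at 1 dpi was 0.70 (adjusted p = 5.8e-04), under 2-fold and no longer called, and relative to the median of all genes it was 0.84. The deposited row, from a dimmer Siglech probe, was called lower at 1 dpi (-2.08). Like Cd4, the brightest Siglech probe was lowest on Ctrl replicate 1 and highest at 1 dpi. The list summed to 42.0 to 58.1 in Ctrl, 77.9 to 84.2 at 1 dpi and 52.3 to 57.2 at 3 dpi. Siglech was the brightest of the list on each array, so that this sum says little about the other genes. Of 10 genes of conventional dendritic cells, Xcr1 and Ccl22 were well above background on 0 arrays, and of the 8 tested 3 were called lower at 1 dpi (Cd209a, Ccr7 and Flt3), 2 lower at 3 dpi (Flt3 and Ccr7) and 1 higher between the times (Cd209a). The sum was 5.81 to 6.20 in Ctrl, 3.37 to 3.44 at 1 dpi and 3.06 to 3.39 at 3 dpi, and the brightest gene, Itgax, was at 0.54 and 0.14, uncalled.

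Of 11 genes of mast cells and basophils, which can hold granzymes, 6 were called higher at 1 dpi and 3 at 3 dpi (Prss34, Tpsb2 and Mcpt4, the last not without Ctrl replicate 1), and limma called 0 lower. Prss34, the brightest, rose by 2.10 ± 0.13 (adjusted p = 1.3e-05) at 1 dpi and 1.17 ± 0.13 at 3 dpi, and the basophil protease Mcpt8 rose by 1.64 ± 0.06 at 1 dpi and was just under 2-fold at 3 dpi. Cpa3 was at 0.89 and 0.48, uncalled. The sum was 151 to 177 in Ctrl, 454 to 463 at 1 dpi and 272 to 297 at 3 dpi.

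B cell genes fell, with 10 of 13 tested called lower at 1 dpi and 11 at 3 dpi, and 3 higher (Vpreb3, Igll1 and Ebf1) and 1 lower (Blk) between the times. Cd79a, a signaling chain of the B cell receptor, fell by 1.53 ± 0.15 and 2.22 ± 0.15. Cd79b, the brightest, fell by 1.28 and 1.52. The sum was 31.9 to 33.3 in Ctrl, 7.83 to 8.10 at 1 dpi and 7.10 to 7.74 at 3 dpi.

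Macrophage genes were higher at the same time as Klrd1 and Cd3g. Of 13 genes, 3 were called higher (C1qb, C1qc and Cd68) and 1 lower (Cd163) at 1 dpi, 10 higher at 3 dpi and 8 higher between the times. The brightest, Csf1r, was at 0.40 ± 0.08 at 1 dpi, uncalled, and rose by 1.05 ± 0.08 (adjusted p = 5.7e-05) at 3 dpi (0.93 relative to the median of all genes), and Adgre1 (F4/80) was at -0.21 and 0.50, uncalled. The sum was 63.4 to 73.7 in Ctrl, 84.9 to 89.7 at 1 dpi and 165 to 173 at 3 dpi.

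Of 12 neutrophil genes, 3 were called higher at 1 dpi (S100a8, S100a9 and Mmp9), with S100a8 up by 1.14 ± 0.10 (0.90 relative to the median of all genes), S100a9 not called without Ctrl replicate 1 (0.97), and Mpo, the brightest, at an uncalled 0.92. At 3 dpi and between the times limma called 0 of them, with 1 higher and 1 lower, and then 10 lower, at an unadjusted p under 0.05. The sum was 1111 to 1198 in Ctrl, 1860 to 2027 at 1 dpi and 1122 to 1250 at 3 dpi. Of 12 erythroid genes, 3 were called higher (Hba-a1, Hbb-b1 and Hemgn) and 8 lower at 1 dpi, 9 lower at 3 dpi, and 4 lower (Alas2, Hbb-b1, Hba-a1 and Hemgn) and as many higher between the times. Hba-a1, the brightest, rose by 1.34 ± 0.12 at 1 dpi and fell by 1.48 ± 0.12 at 3 dpi, and Hbb-b1 rose by 1.08 at 1 dpi and fell by 1.82 at 3 dpi, both against Ctrl. The calls at 1 dpi depended on the processing, with Hba-a1 at 0.70 with quantile normalization and Hbb-b1 at 0.83 relative to the median of all genes. The sum was 142 to 176 in Ctrl, 335 to 383 at 1 dpi and 91.9 to 94.9 at 3 dpi, or 67.0 to 82.0, 140 to 144 and 63.7 to 64.5 without Hba-a1.

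The megakaryocyte genes that define the labelled cell type were well above background on all 9 arrays. Of 18, limma called 0 at 1 dpi and between the times, with 4 higher and 7 lower and then 10 higher and 2 lower at an unadjusted p under 0.05, and 1 lower (Gfi1b) at 3 dpi. Pf4, the brightest, was at 0.09 and 0.01, Itga2b (CD41) at 0.69 and -0.03, and Gp9 at 0.47 and 0.93, with none of these called. The sum was 165 to 185 in Ctrl, 155 to 170 at 1 dpi and 176 to 182 at 3 dpi. Of 12 proliferation genes limma called 0 in each comparison, with 1 higher and 7 lower, 3 higher, and 9 higher and 1 lower at an unadjusted p under 0.05. Mki67 was at -0.52 and -0.03 and Birc5, the brightest, at -0.17 and 0.17. The sum was 161 to 185 in Ctrl, 142 to 146 at 1 dpi and 180 to 192 at 3 dpi.

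**Figure D5:**
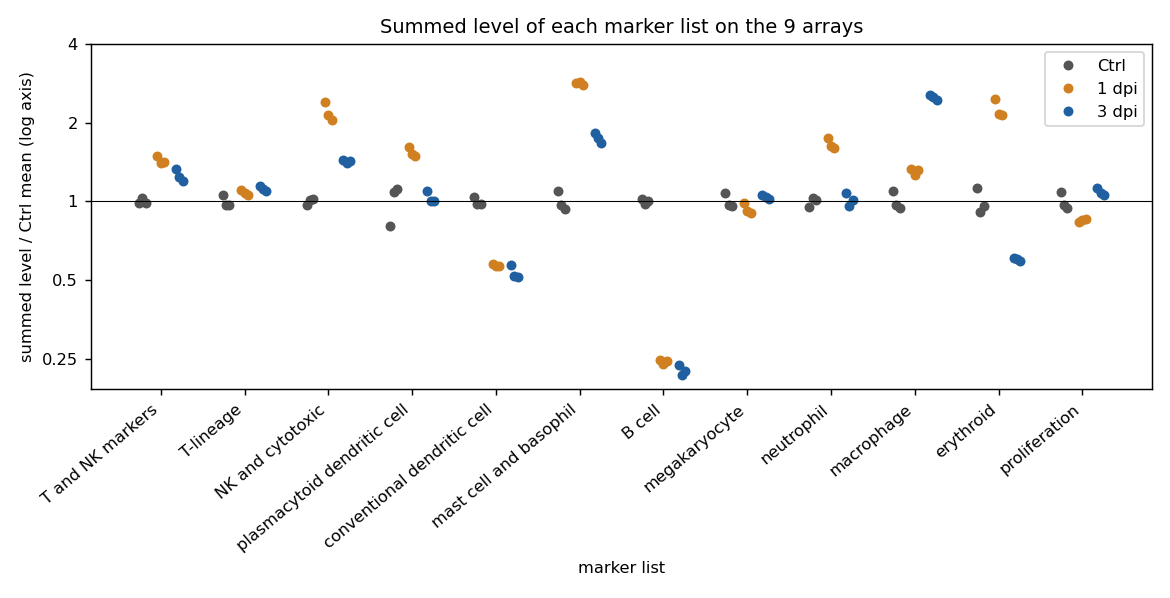
Summed level of each marker list on each array, divided by its Ctrl mean (log axis), by group. The NK and cytotoxic sum is highest at 1 dpi (at 3 dpi without Klra1), the macrophage sum at 3 dpi, and the B cell sum is low at both times.

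The genes whose levels were most like the mean of Cd3d, Cd3e and Cd3g over the 9 arrays were Pvr (Pearson r = 0.995), Arhgap22 (0.992), Ctsw (0.992), Col5a2 (0.992) and Akr1b8 (0.991). For the mean of Nkg7, Gzma, Gzmb and Klrd1 they were Tmem86a (r = 0.999), Nid1 (0.998), Cbr3 (0.998), Pdgfa (0.998) and Tmem51 (0.998). These coefficients describe 9 arrays in 3 groups, so any gene with like group means ranks high. Of the 10 genes, only Ctsw is on the lists above, among the NK and cytotoxic genes, at 0.70 ± 0.11 at 1 dpi, uncalled, and up by 1.00 ± 0.11 (adjusted p = 3.1e-04) at 3 dpi, but under 2-fold without Ctrl replicate 1 (0.95) and relative to the median of all genes (0.89).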

How the data were processed

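Gene expression of mMKs was measured on 9 arrays, grouped by their labels. The authors deposited spot intensity values from Agilent Feature Extraction 10.7.1.1, background-subtracted and not scaled between arrays, and a table of log2 values whose normalization is not stated. The paper's text names the assay in several ways, and the array files were followed. Outlier spots were dropped, which cost 20 of 56605 probes, and no spot was saturated. Log2 intensities were scaled by subtracting the 75th percentile of each array. A probe was kept when all 3 arrays of some group showed it well above background, and the brightest kept probe stood for its gene, which left 29410 of 37316 genes. The 3 groups were fitted together with limma 3.58.1 in R 4.3.3, and p was adjusted by Benjamini-Hochberg over all genes tested. Figures were drawn with matplotlib 3.10.9.

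The members and all gene lists were chosen with earlier results of these data known. The lists were T-lineage, NK and cytotoxic, plasmacytoid dendritic cell, conventional dendritic cell, mast cell and basophil, B cell, megakaryocyte, neutrophil, macrophage, erythroid and proliferation genes. Named genes are the 10 markers, set defining genes of each list, in each comparison the 4 largest calls of the T-lineage and of the NK and cytotoxic list with signal well above background throughout both groups, the brightest gene of each list, and the 5 genes most like each of 2 marker means. Alternatives were other scalings, the deposited log2 values, normexp with an offset of 50 followed by quantile normalization, other filters, probes by themselves or averaged, other fits, blocks, tests and fold minimums, and leaving out each array. Calls relative to the median of all genes the deposited values without a filter, and list sums without Klra1, Fyb or Hba-a1 were chosen after seeing the data. Promoter sequences are from RefSeq, GRCm38.p6.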

Additional observations from a re-analysis of the deposited data

Results flagged for a closer look

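For 3 of the markers the effect of IR differed between 3 dpi and 1 dpi by a test of the difference itself, with an adjusted p under 0.05 and at least 2-fold. Since both effects are taken against the same Ctrl arrays, this test is limma's comparison of the 3 dpi with the 1 dpi arrays. The effect at 3 dpi was larger by 1.78 on the log2 scale for Klrd1 (adjusted p = 5.5e-06 from limma), by 1.42 for Cd3g (adjusted p = 2.1e-04) and by 1.04 for Gzma (adjusted p = 3.1e-04). In each of these genes all 3 arrays of 3 dpi were above all 3 arrays of 1 dpi, and 65.5% of all genes likewise showed no overlap between these groups. By the adjusted p alone 6 of 10 markers passed, beside 13125 of 29410 genes. The 3 added by that reading were under 2-fold with the probe that stands for the gene, and depended on the probe or the scaling: the Cd8a probes were opposed (0.67 and -1.09), Nkg7 went from -0.33 to -0.14 (adjusted p = 0.40) and Cd3d from -0.16 to 0.04 (adjusted p = 0.85) with array medians as the reference. The difference of Gzma was 0.95 without 1 dpi replicate 2, 1.00 without 3 dpi replicate 1 and 0.97 with normexp followed by quantile normalization, under 2-fold in each.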

How the results depend on the processing

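The 4 markers called at 3 dpi were called in each of 30 alternative settings. The members called were 2 at 1 dpi, 4 at 3 dpi and 3 between the times. Scaling to the array median or calling relative to the median of all genes (chosen after seeing the data) gave 0 at 1 dpi. The deposited values, with or without the filter (the latter chosen after seeing the data), gave 4 at 1 dpi, every probe by itself 4 at 1 dpi and 5 between the times, and a 1.5-fold minimum 4 at 1 dpi. With no fold minimum the counts were 6, 7 and 6, and with t-tests and no fold minimum 6, 7 and 8 unadjusted and 6 at 1 dpi and 7 between the times adjusted. The T-lineage counts of 11, 13 and 7 (the last includes Rag1, which was not above background on any of those arrays) went to 7 at 1 dpi with scaling to the array median or relative to the median of all genes, to 7, 8 and 4 with normexp followed by quantile normalization (normexp-quantile), to 24, 25 and 23 with no fold minimum, to 23, 26 and 26 (unadjusted) and 22, 22 and 22 (adjusted) with t-tests and no fold minimum, and to 18 and, between the times, 14 with 1.5-fold. The NK and cytotoxic counts of 12, 19 and 10 went to 7 at 1 dpi with scaling to the array median, to 5 and 12 at 1 and 3 dpi with normexp-quantile, to 29 at 1 dpi and 23 between the times with no fold minimum, to 29 and 23 (unadjusted) and 24 and 21 (adjusted) with t-tests and no fold minimum, and to 21 at 1 dpi with 1.5-fold. Over all genes the counts of 4468, 2587 and 2588 went to 1681, 1163 and 1098 with normexp-quantile, to 4489 between the times with no filter on dim probes, to 16443, 9416 and 13125 with no fold minimum, to 15674, 10523 and 16909 (unadjusted) and 12626, 7120 and 14319 (adjusted) with t-tests and no fold minimum, and to 9935, 4840 and 6676 with 1.5-fold. With the 2-fold minimum, t-tests gave 3946, 2550 and 2726 unadjusted and 3360, 2207 and 2524 adjusted. The cause of these shifts was not tested, and normexp-quantile changed 2 choices at once. Leaving out each array in turn gave 3599 to 5378, 2363 to 2775 and 2269 to 2881 genes, 2 to 3, 4 to 4 and 2 to 4 markers, 11 to 12, 11 to 14 and 6 to 7 T-lineage genes, and 11 to 16, 17 to 21 and 10 to 10 NK and cytotoxic genes. With replicate number as a block the counts were 4273, 2498 and 2494 genes, 2, 4 and 3 markers, 11, 13 and 7 T-lineage genes and 12, 19 and 10 NK and cytotoxic genes. Of 879 values of single markers under the alternatives, 6 turned their direction with a call on either side and 18 without one. A call was lost in 7 values and gained in 54. The 6 are Cd8a between the times, at 0.67: its other probe by itself gave -1.09, and that probe became the brightest once any array of Ctrl or 3 dpi was left out, so that leaving out each array gave -1.31 to 0.70. The mean NK and cytotoxic sum over Ctrl went from 2.20 at 1 dpi and 1.42 at 3 dpi to 1.27 and 1.36 without Klra1, that of T-lineage genes from 1.08 and 1.12 to 1.07 and 1.18 without Fyb, and that of erythroid genes from 2.25 and 0.60 to 1.94 and 0.87 without Hba-a1, each left out after seeing the data. Low intensities limit the values of Cd8a and, before 3 dpi, those of Cd3g. Among the list genes, low Ctrl signal also limits Eomes, Ncr1 and Sh2d1a, with mean Ctrl levels of -5.14, -5.18 and -5.69.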
